A study of Carex littledalei with 18 samples.

Results

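Leaves of Kobresia littledalei (Carex littledalei) kept for 48 h at -5 °C were compared with leaves of the same species at 0 and 4 h. The comparison used 8 of the 18 deposited columns: the 3 libraries of 48 h (replicates 1, 2 and 3), and 5 distinct libraries of 0 and 4 h, pooled into 1 group. The species is a perennial sedge of alpine meadows. Plants were taken from the wild in Tibet, held in pots at 25 °C for 7 days, and placed in a -5 °C room, 1 pot for each of 6 times, and the leaves of each pot gave 3 libraries. All groups were untransformed wild plants with the same growth history, and the labels give no age, genotype or clone.

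The column labelled 4 h replicate 1 repeated the column labelled 0 h replicate 1 in all 214531 rows, so 1 of them was dropped. Its time is therefore unknown, but both labels fall in the pooled group. It is called the 0 or 4 h library here. The others of the pool were 0 h replicates 2 and 3 and 4 h replicates 2 and 3. The 48 h group came from 1 pot and the pool from 2 pots, which means that an effect of the hours and a difference between pots cannot be told apart. The labels list no plants held at 25 °C for a further 48 h, so cold and elapsed time cannot be told apart either. Nothing states that the replicates of a pot came from different plants, so the p-values measure only the spread between these samples, which may be technical.

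Plants that survive frost adjust over hours to days in the cold, a process called cold acclimation. In well-studied plants such as Arabidopsis thaliana, transcription factors of the CBF family respond early, and their targets, among them dehydrins and other protective proteins, accumulate later. Enzymes that desaturate membrane lipids and that make soluble sugars are part of the same programme, while many genes of growth and photosynthesis are reduced. Ice forming outside the cells also draws water out of them, so freezing and drought share part of their response. None of these genes can be pointed out here: the rows are clusters of assembled transcripts with identifiers of the Trinity assembler, the files give them no names, and for the same reason leaf markers could not be checked. A cluster is called a gene below. Clusters whose transcripts the assembler linked by shared sequence form a component, so copies, alleles or fragments of 1 plant gene may stand as several genes.

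The 48 h libraries held between 27242011 and 30304255 estimated counts, and the pooled 0 and 4 h libraries between 18895399 and 29124079. Levels are CPM, counts scaled to a common library size after TMM scaling, a correction for differing library composition. The TMM factors were 0.922, 1.28 and 0.859 at 48 h and 0.755 to 1.22 in the pool. Both groups thus held libraries with factors above and below 1. Genes were tested with edgeR's quasi-likelihood test on the 8 libraries, with Benjamini-Hochberg adjustment over all tested genes, and called at an adjusted p under 0.05. In whole-leaf RNA, fewer cells of a type and less RNA per cell cannot be told apart.

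After 48 h, 435 genes were higher than in the pool and 214 were lower, of 51405 tested. These were 0.846% and 0.416% of the tested genes, and together 1.26%. A further share of genes leaned either way without passing the adjustment: at an unadjusted p under 0.05, 3339 genes (6.5%) were higher and 3693 (7.18%) lower. Across all tested genes the median log2 fold change was -0.02, with quartiles of -0.54 and 0.46, so most of the leaf transcriptome lay within 2-fold of its earlier level. The counts depended on single libraries, most of all on those of 48 h. Without 48 h replicate 1, 2 or 3, the calls were 91 higher and 34 lower, 37 and 16, and 93 and 32, and without 0 h replicate 3 or 4 h replicate 3 they were 120 and 66, and 180 and 106. DESeq2 called 1259 higher and 1543 lower, so edgeR gave more higher than lower genes and DESeq2 gave fewer.

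**Figure D1:**
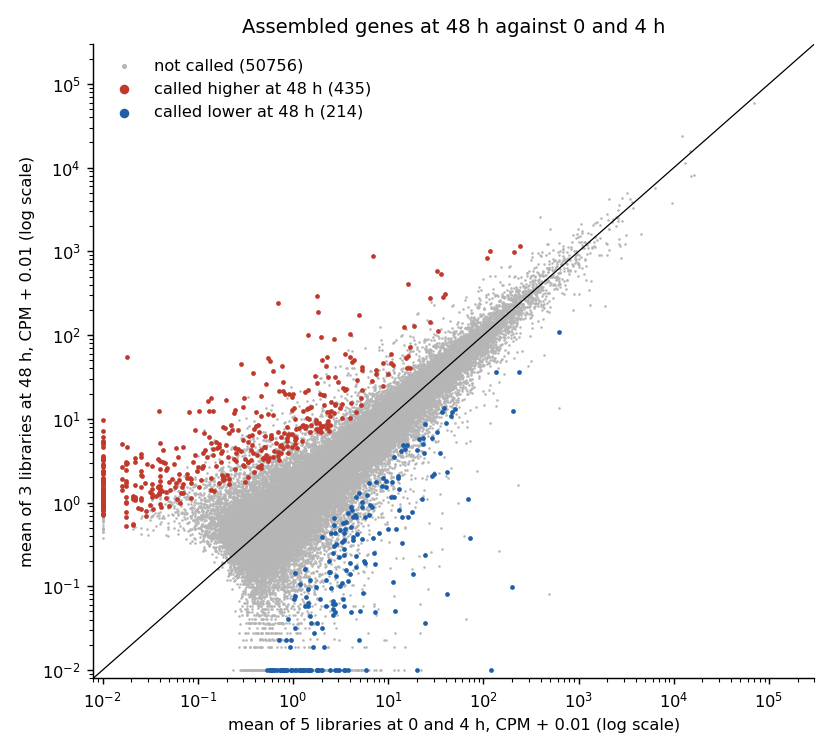
Mean level of each of 51405 tested genes at 48 h (vertical axis, 3 libraries) against its mean at 0 and 4 h (horizontal axis, 5 libraries), both as CPM + 0.01 on log scales. Red points are the 435 genes called higher and blue points the 214 called lower; grey genes were not called and the line marks equal levels. The called genes fan out from the line at low and middle levels, and no blue point lies above 617 CPM in the pool.

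The genes that rose were mostly scarce in the pool. By mean level, the median higher gene had 3.96 CPM at 48 h and 0.176 CPM in the pool, while over all tested genes these medians were 2.05 and 2.07 CPM. Of the 435, 321 stood below 1 CPM in the pool, and 117 reached at least 10 CPM and 20 at least 100 CPM at 48 h. The median of their log2 fold changes was 4.68, and also 4.68 with the genes that had 0 reads in the whole pool set at a lower bound. By that bounded measure 412 changed at least 4-fold, 263 at least 16-fold and 92 at least 64-fold. Per length, on the authors' scaled table, their median level was 5.75 at 48 h and 0.272 in the pool, against 2.48 and 2.50 over all tested genes. A gene scarce in the pool could pass the filter on low counts through its 48 h reads, and the calls used the same counts. Both favour low pool levels, so these levels describe the called genes and are no further test.

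The genes that fell were scarce at 48 h. Averaged over libraries, the median lower gene stood at 0.11 CPM at 48 h and at 3.35 CPM in the pool. At 48 h 169 of the 214 stood below 1 CPM, whereas 31 did so in the pool. Their log2 fold changes had a median of -4.77, and of -4.41 once genes without a read at 48 h were set at their bound. At least 4-fold changes made up 198 of them, 16-fold changes 130 and 64-fold changes 27. Per length their median on the scaled table was 0.193 at 48 h and 4.00 in the pool. The same limit holds for these levels: a gene scarce at 48 h could pass the filter through the pool, and the calls used the same counts. Both sets were shorter than the typical tested gene: the effective length implied by the ratio of counts to scaled values was 0.771 of the tested median for the higher genes and 0.867 for the lower ones.

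All 435 higher genes lay above every pooled library in all 3 libraries of 48 h, and all 214 lower genes lay below. Over the tested genes as a whole, 3049 (5.93%) were higher without overlap and 2228 (4.33%) lower without overlap. Most genes whose groups did not overlap therefore did not pass the test. Within the called genes the gap was wide, but calling on these same libraries favours a wide gap. Between the nearest libraries of the groups its median was 2.02 log2 units for the higher genes and 2.08 for the lower ones, and it reached at least 4-fold in 223 and 112 genes. The spread among the 48 h libraries had a median of 1.18 log2 units for the higher genes, close to the 1.23 among the pooled libraries. For the lower genes it was 0.58 at 48 h and 1.49 in the pool. Spreads and gaps were taken on log2(CPM + 0.1), and levels near the added 0.1 compress both. The median lower gene stood at 0.11 CPM at 48 h, and 60 of the 214 had 0 reads there and thus no spread by construction. The narrow spread of the lower genes at 48 h is therefore partly set by this floor.

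Calls were made at all levels of abundance. Between 0 and 0.5 CPM on average 1.02% of 8518 tested genes were called, between 1 and 3 CPM 1.62% of 12091, between 10 and 100 CPM 0.838% of 10265, and above 100 CPM 1.11% of 1444. The smallest called rise was a log2 fold change of 3.82 below 0.5 CPM, 1.26 between 10 and 100 CPM and 2.22 above 100 CPM. For falls the smallest sizes in these ranges were -5.40, -1.52 and -2.52. Each of these is the value of a single gene, and above 100 CPM they come from 12 higher and 4 lower genes.

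The summed weight of these transcripts in the leaf was small. The higher genes together took 1.02%, 1.78% and 1.08% of all counts in 48 h replicates 1, 2 and 3, and 0.122% to 0.148% in the 5 pooled libraries. The lower genes took 0.0337%, 0.0553% and 0.0328% at 48 h and 0.252% to 0.361% in the pool. No library of the pool came near the 48 h values in either sum. Since these genes were chosen by the same counts, the sums describe their weight and are no further test.

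Most of the most abundant leaf transcripts stayed within 2-fold. Of the 100 most abundant genes of the pool, 73 were also among the 100 most abundant at 48 h, and 85 changed less than 2-fold. Their log2 fold changes ran from -3.07 to 1.00, with a median size of 0.45, against 0.5 over all tested genes. Of these 100, edgeR called 0 in either direction, with 6 at an unadjusted p under 0.05, and DESeq2 called 5, all lower. Without overlap between the groups 4 of the 100 lay lower at 48 h, near the 4.33% of all tested genes, and 0 lay higher, against 5.93%. These 100 were picked by their level in the pool, which favours falls. Of the 100 most abundant genes at 48 h, 3 were called higher, where 0.846% of all tested genes were. This list was picked by the 48 h level, which favours genes that rose, so its larger share is no further result. The 100 most abundant genes of each library held 29.4% ± 3.8 of its counts at 48 h (SD, n = 3) and 31.1% ± 4.4 in the pool (SD, n = 5), a difference of -1.77 percentage points (exact permutation p = 0.589, two-sided, 56 arrangements). The number of genes at or above 1 CPM exceeded that of the pool by 473 on average (exact permutation p = 0.571), with 32241 to 34768 genes at 48 h and 31477 to 34297 in the pool.

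Whole profiles nevertheless set the 48 h libraries apart. The rank correlation over tested genes was 0.879, 0.891 and 0.898 between the 3 pairs of 48 h libraries, and 0.796 to 0.839 over the 15 pairs of a 48 h with a pooled library, so these ranges did not overlap. Within the pool it ran from 0.793 to 0.934 over 10 pairs. The pool was thus less even than the 48 h group, and some of its pairs were as far apart as pairs across the groups. The grouping accounted for 26.1% of the variation of log2(CPM + 1) between the 8 libraries, where 14.3% is the share of an arbitrary grouping. No other of the 56 ways to choose 3 libraries gave a share as large (exact permutation p = 0.0179, the smallest these libraries allow). The share was 23.8% without 48 h replicate 1 (exact permutation p = 0.143) and 26.1% without 48 h replicate 3 (p = 0.0952, exact). Without the 0 or 4 h library it was 30.8% (exact permutation p = 0.0571). Each 48 h library was closest to another 48 h library among all 17. In the pool, 4 h replicates 2 and 3 were likewise closest to each other (0.934), and 0 h replicate 3 was closest to 4 h replicate 3 (0.902). Both 0 h replicate 2 and the 0 or 4 h library were closest to 24 h replicate 3, with rank correlations of 0.894 and 0.897.

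Individual genes are shown by 4 examples, in each direction the gene of smallest p and the called gene of highest mean level from another component. TRINITY_DN201151_c3_g1 was the clearest rise. It stood at 95.9, 30.7 and 36.1 CPM in 48 h replicates 1, 2 and 3, and it had 0 reads in every pooled library except 0 h replicate 3, which had 1 read (0.0402 CPM). The groups were far apart, and the gene was all but silent before 48 h. The edgeR fit put the log2 fold change at 11.99, with an SE of 0.75 derived from F and an adjusted p of 0.00069. From the summed reads, 4496 at 48 h and 1 in the pool, the ratio was 5960, with an exact 95% interval of 1070 to 235000 that covers counting error only. In the 9 libraries of 0.5, 12 and 24 h, which took no part in the test, it had between 0 and 5 reads. The gene stayed called in all 21 alternatives tried.

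TRINITY_DN199886_c1_g2 was the most abundant gene that rose. It had 1030, 1710 and 752 CPM in 48 h replicates 1, 2 and 3. In the pool it had 290 CPM in the 0 or 4 h library, 269 and 253 CPM in 0 h replicates 2 and 3, and 184 and 208 CPM in 4 h replicates 2 and 3. The lowest 48 h library thus held more than the highest pooled one. The means were 1160 ± 490 CPM at 48 h (SD, n = 3) and 241 ± 44 CPM in the pool (SD, n = 5), and edgeR gave 2.27 as the log2 fold change (SE 0.38) at an adjusted p of 0.025. At the times outside the test it held 60.1 to 154 CPM at 0.5 h, 201 to 549 CPM at 12 h and 519 to 1500 CPM at 24 h. All 3 values at 0.5 h lay below the pool, and those at 24 h lay above it. Of 4 tested genes in its component 2 were called, both higher, and the other two had log2 fold changes of 2.04 and 1.90 (edgeR adjusted p = 0.084 and 0.11). The call was lost when any 48 h library, 0 h replicate 3 or 4 h replicate 3 was left out, with an adjusted p of up to 0.088 there and of 5.9e-08 to 0.091 over all alternatives.

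TRINITY_DN212992_c4_g4 was the fall of smallest p. It had 0 reads in all 3 libraries of 48 h. It stood at 118 CPM in the 0 or 4 h library, at 170 and 158 CPM in 0 h replicates 2 and 3, and at 84.7 and 62.2 CPM in 4 h replicates 2 and 3. With 3 counts over the 48 h group as a floor, the gene was at least 3510-fold lower at 48 h (edgeR adjusted p = 0.0016). The other times did not order it by hours in the cold. It was at or near 0 in 0.5 h replicates 1 and 2 (1 and 3 reads), in 12 h replicate 2 and in 24 h replicate 1 (0 reads each). In the remaining libraries of these times it held between 54.9 and 199 CPM. At each of these times the replicates thus split into near-zero and high libraries. In a fit of all 17 distinct libraries, where this spread enters the test, its adjusted p was 0.12, and over all alternatives it was between 9e-50 and 0.12. Of the 5 tested genes in its component, 3 were called, all lower. The other 2 had log2 fold changes of -0.81 and -1.11 (edgeR adjusted p = 0.48 and 0.42). Apart from TRINITY_DN212992_c4_g4, the genes of the component still held 12.3 to 62.2 CPM at 48 h.

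TRINITY_DN195367_c2_g1 was the most abundant gene that fell. It had 108, 121 and 94.7 CPM in 48 h replicates 1, 2 and 3, against 309 CPM in the 0 or 4 h library, 885 and 450 CPM in 0 h replicates 2 and 3, and 626 and 816 CPM in 4 h replicates 2 and 3. The 48 h libraries were close together, while the pool spread over nearly 3-fold. The means were 108 ± 13 CPM at 48 h (SD, n = 3) and 617 ± 240 CPM in the pool (SD, n = 5), and edgeR put the log2 change at -2.52 with an SE of 0.46 (adjusted p = 0.031). At 0.5, 12 and 24 h its libraries ranged from 140 to 737, from 181 to 328 and from 309 to 503 CPM, all above every 48 h value in CPM. On the authors' scaled table this order did not hold: 12 h replicates 1 and 2 (313 and 175) and 24 h replicate 1 (290) lay below the 48 h libraries (325 to 385). On that table limma gave a log2 fold change of -1.40 (adjusted p = 0.25). The call was also lost without any 48 h library, without 0 h replicate 3 or without 4 h replicate 3, and its adjusted p ran from 1.3e-07 to 0.26 over all alternatives.

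**Figure D2:**
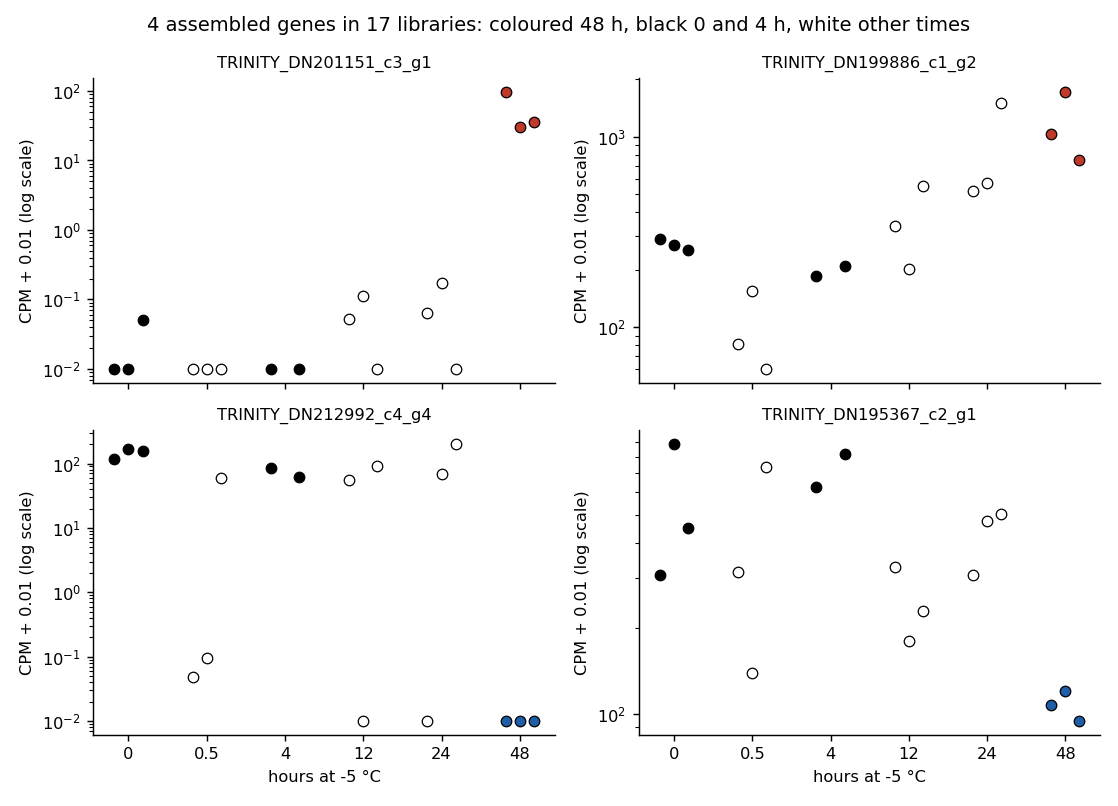
Levels of the 4 named genes in each of 17 libraries, as CPM + 0.01 on log scales, over the 6 times; coloured points are 48 h, black points 0 and 4 h, white points the times outside the test, and the library of 0 or 4 h is drawn at 0 h. The upper genes rose and the lower genes fell at 48 h. TRINITY_DN212992_c4_g4 splits into high and near-zero libraries at 0.5, 12 and 24 h.

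Genes without any read in 1 of the groups formed the extremes. Among the higher genes, 74 in 68 components had 0 reads in all 5 pooled libraries, which allows a level of up to 0.0255 CPM over the group. Of all tested genes, 101 had no read in the pool. The 74 had a median of 1.42 CPM at 48 h and a maximum of 9.58 CPM. Their rises were at least 376-fold in the most extreme case. Of these 74 genes, 21 also had 0 reads in all 9 libraries of the other times, while 18 had reads in all 3 libraries of 0.5 h. Among the lower genes, 60 in 56 components had 0 reads in all 3 libraries of 48 h, which allows up to 0.0338 CPM. Of all tested genes, 529 had no read at 48 h. The filter on low counts sets both totals, since a gene absent from 1 group could enter only through the other, so the 2 counts are not compared. All 60 were read in at least 1 library of 0.5, 12 or 24 h.

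The 649 genes are described here in the libraries of 0.5, 12 and 24 h, which were not used in the test. For each gene a midpoint was set halfway, on the scale of log2(CPM + 0.1), between the mean of the 48 h libraries and that of the pool. A library on the far side of it was counted as being on the 48 h side. Among the 435 higher genes, 68 to 155 were on the 48 h side in a library of 0.5 h, 95 to 191 in one of 12 h and 136 to 211 in one of 24 h. The medians of their mean levels were 0.176 CPM in the pool, 0.52 at 0.5 h, 0.854 at 12 h, 1.00 at 24 h and 3.96 CPM at 48 h. The genes were chosen by their 48 h and pooled levels, so libraries outside the test can fall between these for that reason alone. The median at 0.5 h was already above that of the pool, although 0.5 h lies between 0 and 4 h. The order of the medians is therefore not read as a time course. No library of 24 h had more than 211 of the 435 genes past the midpoint.

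Only part of the higher genes behaved alike in all replicates of each time. The 3 libraries of each other time fell on the same side in 160 of the 435. Of these 160, 51 genes in 31 components were on the pool side at 0.5 h and on the 48 h side at 12 and 24 h, 3 were on the 48 h side at 24 h alone, and 15 at 0.5 h alone. The remaining 91 genes, in 86 components, were on the pool side in all 9 libraries. The 2 main patterns differed in level, though each was defined by its sides at 0.5, 12 and 24 h.

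The 51 genes already high at 12 h had median levels of 0.611 CPM in the pool, 0.268 at 0.5 h, 17.7 at 12 h, 41.1 at 24 h and 21.9 CPM at 48 h. In 43 of them the mean at 24 h was above that at 48 h, so 48 h was not the highest time measured for these. Together they took 0.263% to 0.679% of the counts of a 48 h library, against 0.0158% to 0.0353% in a pooled library. At 24 h this share was 0.49% to 0.888%.

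The 91 genes on the 48 h side at 48 h alone were scarcer and more nearly off beforehand. Their medians were 2.74 CPM at 48 h and 0.0108 CPM in the pool, with 0.0253, 0.0213 and 0.0119 CPM at 0.5, 12 and 24 h. By library the median was 3.32, 2.40 and 1.62 CPM in 48 h replicates 1, 2 and 3. At 48 h 14 of them reached 10 CPM, the highest 112 CPM. For 38 of the 91 the whole pool had 0 reads, and for 21 all 14 libraries outside 48 h had 0 reads. TRINITY_DN201151_c3_g1 belongs to this group.

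The lower genes followed a different course. Only 2 of the lower genes were on the 48 h side in all 3 libraries of 12 h, and 1 in all 3 of 24 h. By contrast, 35 genes in 32 components kept to the pool side in all 9 other libraries. The median gene of those 35 averaged 0.135 CPM at 48 h, against 3.78 CPM in the pool and 3.82, 5.18 and 5.99 CPM at 0.5, 12 and 24 h. These 35 were chosen for lying on the pool side at 0.5, 12 and 24 h, so their levels at those times follow from the choice. In 177 of the 214 lower genes the 3 libraries of at least 1 other time fell on different sides.

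The split ran along particular libraries. In 0.5 h replicates 1 and 2, 109 and 110 of the 214 lower genes were on the 48 h side, and in 12 h replicate 2 and 24 h replicate 1 these were 116 and 115. In the other 5 libraries of these times they were 46 (0.5 h replicate 3), 16 and 43 (12 h replicates 1 and 3) and 27 and 11 (24 h replicates 2 and 3). The overlap was largest between 12 h replicate 2 and 24 h replicate 1, where 100 genes were on the 48 h side in both, which is 86.2% and 87% of each. With these 2 libraries, 0.5 h replicates 1 and 2 shared 71 to 76 genes, 61.7% to 69.7% of either library. Since each held 109 to 116 of the 214 genes, many would be shared without any relation. Over all tested genes, 12 h replicate 2 and 24 h replicate 1 were also each other's closest library, at a rank correlation of 0.902. A stricter count, which asks for 1 library at or below the highest 48 h value and another of the same time at or above the lowest pooled value, still gave 112 genes (52.3%) split at 1 or more times. For the higher genes the same count gave 108 (24.8%).

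**Figure D3:**
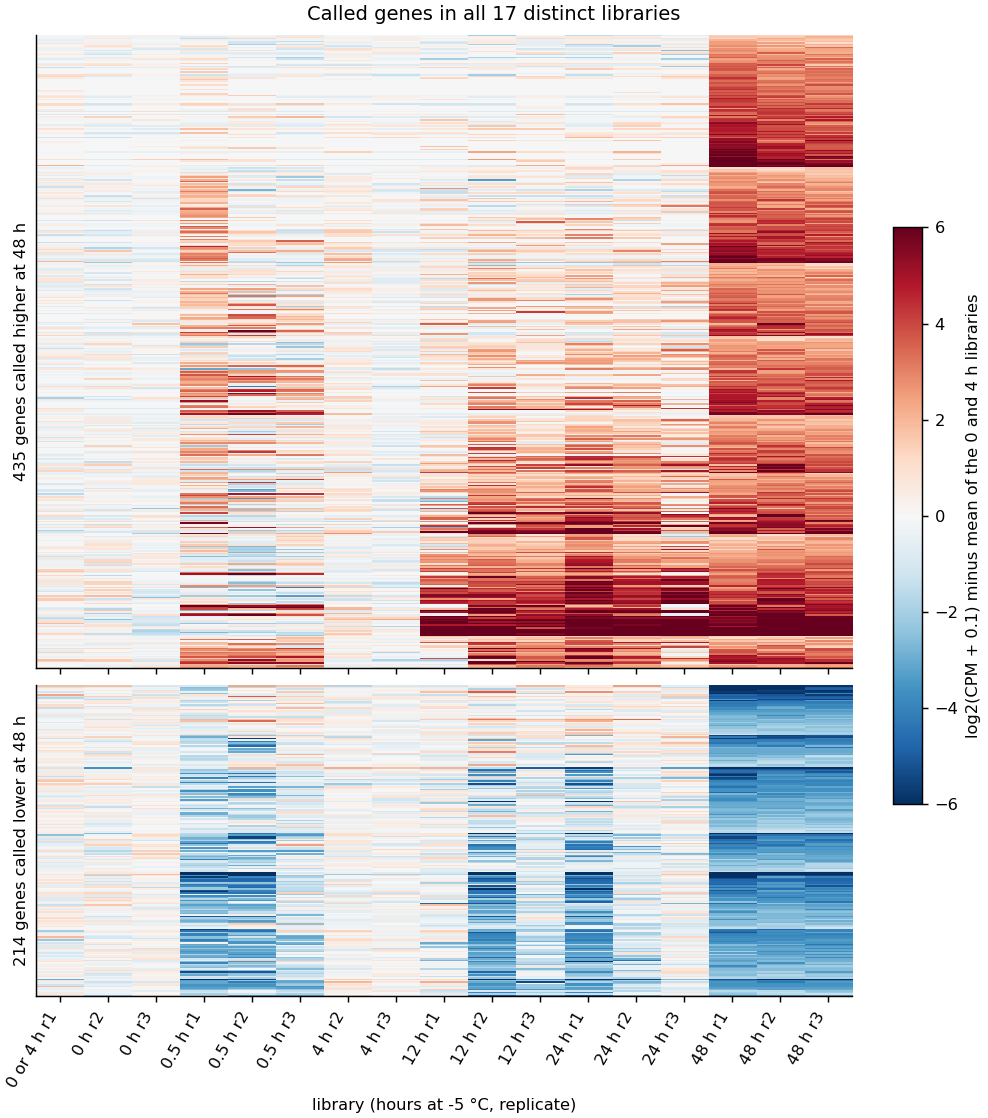
Level of each called gene in the 17 distinct libraries, ordered by time, as log2(CPM + 0.1) minus the mean of the 0 and 4 h libraries; red is above and blue below that mean, the upper panel holds the 435 higher genes and the lower panel the 214 lower ones. Rows are sorted by the number of libraries of 0.5, 12 and 24 h on the 48 h side. The 91 rows at the top of the upper panel pass the midpoint at 48 h alone, though some are paler red at other times. In the lower panel 0.5 h replicates 1 and 2, 12 h replicate 2 and 24 h replicate 1 share blue rows with 48 h.

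**Figure D4:**
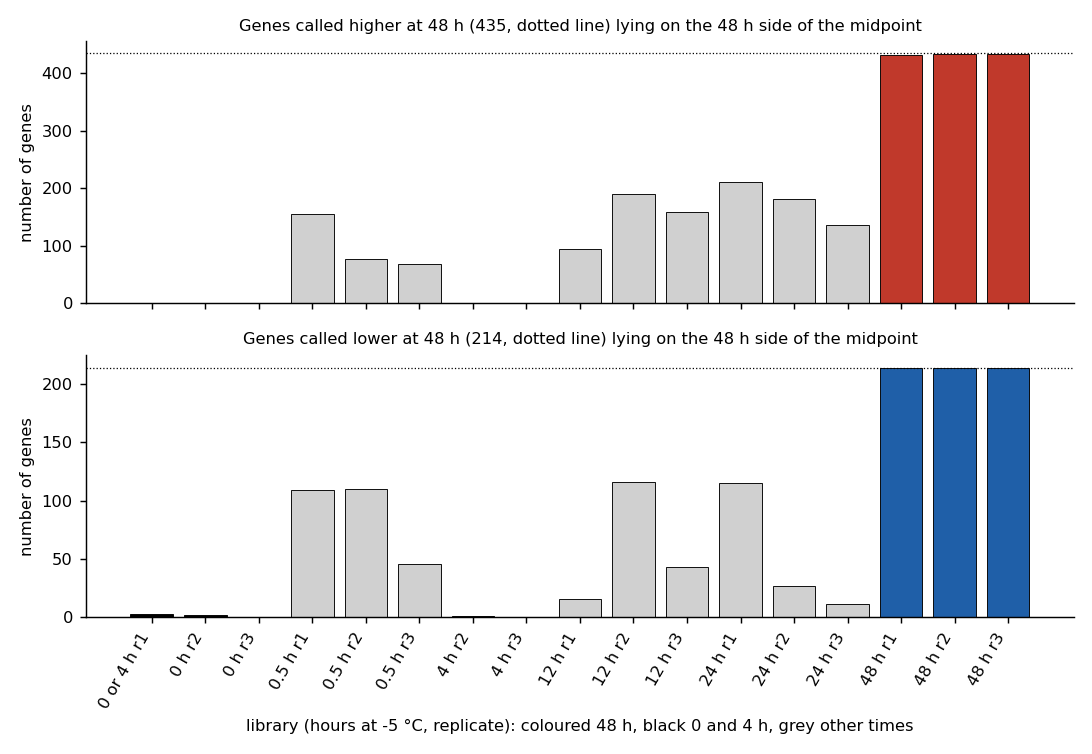
Number of the 435 higher genes (top) and 214 lower genes (bottom) that lay on the 48 h side of the midpoint in each library; dotted lines mark the full sets, coloured bars are 48 h, black bars 0 and 4 h, grey bars times outside the test. The 0 and 4 h libraries hold at most 3 such genes, by construction of the comparison. Among grey bars of the lower genes, 12 h replicate 2 and 24 h replicate 1 stand at 116 and 115, against 11 to 43 in the other libraries of 12 and 24 h.

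Called genes of 1 component mostly shared a direction. The 649 genes lay in 563 components, of which 69 held 2 or more called genes, up to 4. In 49 of these all called genes were higher and in 19 all were lower. A single component held calls in both directions: its higher gene had 6.72 CPM at 48 h and 0.785 CPM in the pool, its lower gene 0.04 and 11.8 CPM, and the sum over its tested genes changed by -0.89 on the log2 scale. Counts summed over components gave 128 higher and 55 lower of 24085 tested components, so some calls on single genes were not seen in the sum of their relatives.

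The pool joins 2 times, and these were compared without the library of unknown time. In a fit of 7 libraries with a mean for each time (55307 genes tested), 48 h against 0 h gave 95 higher genes (0.172%) and 166 lower ones (0.3%), and 48 h against 4 h gave 167 (0.302%) and 120 (0.217%). The same 48 h libraries enter both. Over the 435 higher genes the median log2 fold change was 5.09 against 0 h and 4.40 against 4 h, and over the 214 lower genes it was -4.71 and -4.68. All 649 had the same sign against either time, which adds nothing to the lack of overlap between their groups.

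Between 4 and 0 h, 1 gene (0.00181%) was called, lower at 4 h, and 3901 (7.05%) had an unadjusted p under 0.05. None of the 649 was called by edgeR between these times in that fit, while 46 of the 435 and 17 of the 214 had an unadjusted p under 0.05. The called gene had 0.114 and 0.0538 CPM in 4 h replicates 2 and 3 and at least 23.4 CPM in 0 h replicates 2 and 3, and was singled out after its values were seen. The 0 or 4 h library held 89.1 CPM of it, and the 48 h libraries 0.116 to 0.2 CPM. It was not called in the pooled comparison. All these counts hung on where the library of unknown time was placed: kept at 0 h it gave 427 higher and 472 lower genes at 48 h against 0 h, and kept at 4 h it gave 9 and 10. The pooled comparison does not depend on that placement, and without the library it called 404 higher and 212 lower genes, of which 347 and 165 were among the 435 and 214.

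Few calls survived every omission. In the fit of 8 libraries and in all 8 fits that left out 1 library, 30 genes in 26 components were called higher and 14 in 13 components lower. No called gene turned its sign in any of these fits, which adds nothing to the lack of overlap between their groups. The 30 had a median log2 fold change of 6.55, and their median level was 12.1 CPM at 48 h and 0.403 CPM in the pool. At 12 and 24 h their medians were 4.73 and 5.68 CPM, and 12 of the 30 were on the 48 h side in all libraries of both times. The 14 had a median log2 fold change of -6.68, with 0.0548 CPM at 48 h and 5.68 CPM in the pool. TRINITY_DN201151_c3_g1 was among the 30 and TRINITY_DN212992_c4_g4 among the 14. The more abundant examples, TRINITY_DN199886_c1_g2 and TRINITY_DN195367_c2_g1, were not.

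**Figure D5:**
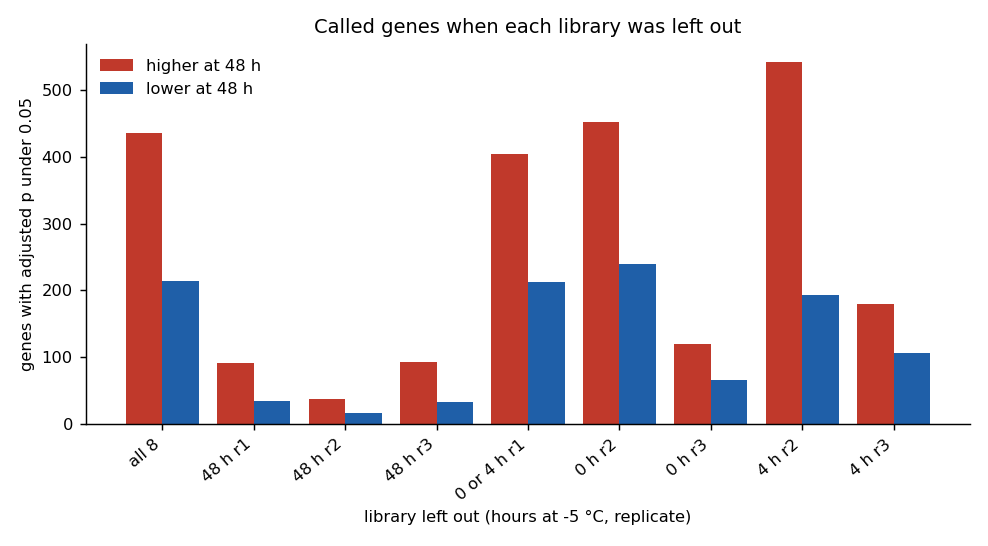
Number of genes called higher (red) and lower (blue) at 48 h against 0 and 4 h with all 8 libraries and with each library left out. The counts fall to 37 higher and 16 lower without 48 h replicate 2 and reach 542 higher without 4 h replicate 2.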

How the data were processed

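Leaf RNA of 18 samples was sequenced after MGIEasy mRNA library preparation from 2 µg of total RNA, per the labels' protocols. Per the submitters' processing notes, Trimmomatic 0.36 and FastQC were used on the reads. Aligner, counter and build were not given in the sources used here. As data, the authors deposited expected counts (estimated counts, not scaled between libraries), rounded here to whole numbers, and a signal table scaled for length and by TMM, per the file names. The exact unit of that signal is not stated. Columns were matched by sample title, with 0 unmatched.

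Members and gene groups were chosen with earlier results of these data known. The 8 libraries were fitted in R 4.3.3 with edgeR 4.0.16 (filterByExpr, TMM, quasi-likelihood F test, 6 residual degrees of freedom, common biological coefficient of variation 60.3%). TMM factors of the other 9 libraries were set on the same scale. The SE is the absolute log2 fold change divided by the square root of F. The fit was tested on simulated data. A group with 0 reads was bounded with 3 counts over the group. Floors and intervals cover counting error only. Single values were tested by exact permutation over libraries (two-sided for differences, upper tail for the variation share). Alternatives used DESeq2 1.42.0 and limma 3.58.1, with limma on log2(value + 1) or log2(value + 0.1). The rule for the 4 printed identifiers was the smallest p and the highest mean level in another component, in each direction, among called genes without overlap between groups. No gene list was tested, since the identifiers carry no names.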

Additional observations from a re-analysis of the deposited data

Results flagged for a closer look

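Dixon's test was applied to the 5 pooled 0 and 4 h libraries for 8 measures, where chance alone marks about 5% of groups. It marked 1: TRINITY_DN201151_c3_g1 in 0 h replicate 3, at 0.0402 CPM, while the other pooled libraries had 0 reads. The value is a single read. With the other pooled libraries tied at 0, any read there would have been marked, so the 5% does not apply to this measure.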

How the results depend on the processing

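Of 14 alternatives other than leaving out a library, 5 kept the count of higher genes and 7 that of lower genes within 1.5 times. Among them were RLE factors, library size alone, robust shrinkage and a 2-fold minimum. The 2-fold minimum could not move a count, since the smallest called log2 fold changes were 1.26 and -1.52. For higher and lower genes DESeq2 gave 1259 and 1543 (338 genes had no adjusted p), limma with a pseudocount of 0.1 gave 661 and 359, no filter 2351 and 2599, an adjusted p under 0.01 30 and 15, and sums over components 128 and 55. Limma with a pseudocount of 1 gave 924 higher, the filter of 1 CPM 281 higher, 3 means without the identical library 710 higher, and the fit of 17 libraries 124 lower. Leaving out 1 library gave 37 to 542 higher and 16 to 240 lower. The cause was not tested for any of these. The labels do not state that replicate numbers pair libraries across times. Correlations of same-numbered deviations between times ran from -0.228 to 0.0892. With replicates 2 and 3 alone at 0 and 4 h, the deviations there mirror each other, so these values cannot settle whether the numbers pair. A replicate block gave 100 higher and 43 lower genes.

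In the fit of separate times, counts are given as higher and lower against 0 h, higher and lower against 4 h, and differing between 4 and 0 h. With the identical library at 0 h alone the moved counts were 427, 472 and, between 4 and 0 h, 12, and with it at 4 h alone they were 9, 10, 38, 36 and 0. Without a filter they were 1397, 1737, 2006, 1727 and 1588, and in DESeq2 1076, 1001, 1589, 1011 and 694. With a replicate block 77 were lower against 0 h, 64 lower against 4 h, and 34 differed between 4 and 0 h. Leaving out 1 library gave 13 to 199, 15 to 485, 1 to 804, 6 to 789 and 0 to 468; where 1 library of 0 or 4 h remained, it was assumed to vary like the other groups.

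The share of variation was 23.8% to 32.1% without single libraries. The difference in the 100 most abundant genes was -3.29 to 0.36 percentage points, and that in genes at 1 CPM was -166 to 1100 genes; at 10 CPM it was -21.1. Whether depth limited the calls at low levels was not tested.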
